A study of Mus musculus with 12 samples.

Results

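The liver makes most of the complement and coagulation proteins of the blood, and 38 genes of these 2 systems were followed in mouse liver. They were taken by gene symbol from the platform annotation, 18 of them complement genes and 20 coagulation genes. Probes for 35 of the 38 were on the array, and 34 passed the detection filter among 8819 genes tested. The C3, Cfd and Cpb2 genes had no probe under those symbols in the annotation used, so they were not analysed here. The only probe of Fgb, the fibrinogen beta chain, reached detection on 1 PBS array and on 0 leptin arrays and was not tested. The brightest kept probe stood for each gene, and each of the 34 was detected on all 12 arrays.

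Both groups were insulin-deficient mice of mixed strain background. In the leptin group, 25 ng of leptin in 0.11 µL was infused each hour into a brain ventricle (icv), and livers were taken on day 10. The control group received phosphate-buffered saline (PBS) by the same route, with no volume or day recorded here. Each group held 6 arrays, and every mean, SD and SE below rests on n = 6 per group. How insulin deficiency was brought about is not given in the labels. No label links an array to an animal, and the p-values therefore reflect variation among these arrays, part of which may be technical.

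Complement is a chain of plasma proteins that marks and lyses microbes. Lectins or antibodies bound to a surface activate serine proteases, these build convertases that cleave C3, and the terminal components then assemble a pore in the membrane. Coagulation is a second protease chain, which ends when thrombin cuts fibrinogen to fibrin. Several of its proteases need vitamin K-dependent gamma-carboxylation, anticoagulants such as protein C and antithrombin restrain it, and plasmin dissolves the clot. Both chains are largely products of the hepatocyte. In bulk liver RNA, fewer cells of a type and less RNA per cell cannot be told apart.

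Each array detected 13159 to 14431 of 45281 probes. Within groups, pairs of arrays correlated at 0.940 to 0.985 (Pearson, across probes). PBS 3 stood apart from its group in clock genes. Dbp, a transcription factor under clock control, read 12.27 on PBS 3 against 8.72 to 10.05 on the other 5 PBS arrays (normalized log2 intensity), and Arntl, a core clock activator, was detected on those 5 but not on PBS 3. Leptin 4 had the lowest Dbp of its group, 11.01 against 12.26 to 13.25, and stood apart in Timd4, a macrophage marker, at 8.15 against 6.44 to 6.97. Both arrays were doubted in an earlier analysis of these data. Without both arrays, 10 of the 34 members were again higher with leptin. That set had lost Cfb and gained Klkb1. PBS 3 was the highest PBS array of Klkb1 and leptin 4 its lowest leptin array, so this gain is not independent support.

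Of the 34 tested members, 10 were higher with leptin and 0 lower at a limma adjusted p under 0.05. Across all 8819 genes, 8.31 percent were higher and 8.40 percent lower by the same test, while 29.4% of the tested members were higher. The 10 were C8a, C8b, F11, C2, Masp1, Mbl2, Cfb, Proc, F10 and F2. The difference was above 0 in 31 of 34 members, or 91.2%, against 50.5% of all genes tested. The median log2 difference of the members was 0.36, with a range from -0.19 to 1.53, and the median of all genes was 0.0039. At an unadjusted p under 0.05, 18 members passed, all of them higher, where 32.2 percent of all genes passed in either direction.

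**Figure D1:**
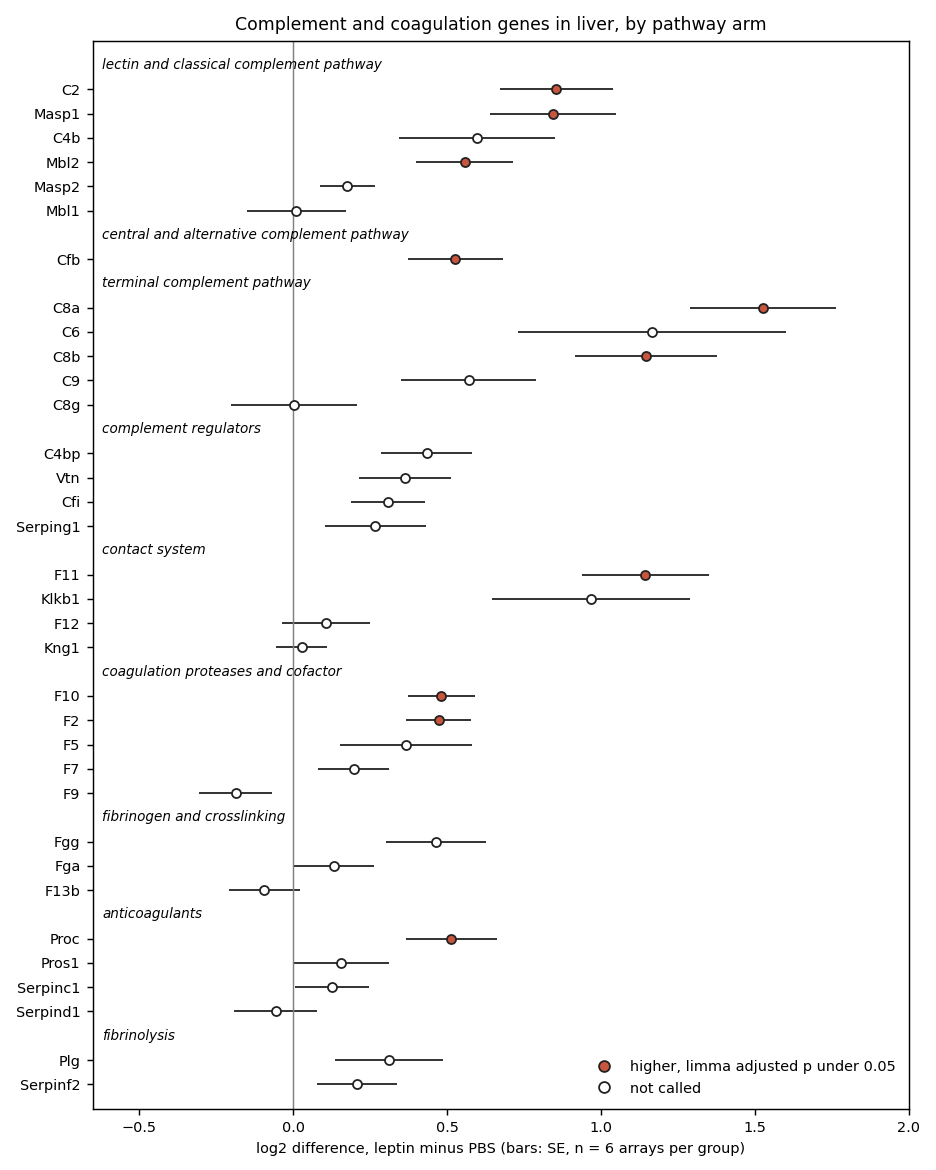
Log2 difference between leptin and PBS for the 34 tested genes, grouped by pathway arm, with bars for the SE (n = 6 arrays per group). Filled points are the 10 genes with a limma adjusted p under 0.05, and C8a, C8b, F11 and the uncalled C6 lie furthest to the right.

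On 6 of the 34 genes every leptin array lay above every PBS array, namely C8a, C8b, F11, Masp1, F10 and F2. Over all genes tested, 3.15 percent separated in that direction. No member separated the other way, where 4.13 percent of all genes did. The complement genes had a median log2 difference of 0.54 over 16 tested, with 6 higher. The coagulation genes had a median of 0.20 over 18 tested, with 4 higher. This difference between the systems was not tested.

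The terminal complement genes, whose products build the membrane pore, had the highest median of the arms with more than 1 tested gene, 1.14 over 5 genes. Of these, 2 were higher, and both encode chains of the eighth component. C8a, the alpha chain, ran from 8.87 to 9.74 on the leptin arrays (median 9.48, normalized log2 intensity) and from 7.25 to 8.67 on the PBS arrays (median 7.97). The groups did not overlap, and leptin 4 was the lowest leptin array. The log2 difference was 1.53 ± 0.24 (SE, limma adjusted p = 0.00135), a fold of 2.88 and the greatest among the members.

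C8b, the beta chain, ran from 12.002 to 13.50 with leptin (median 12.92) and from 11.26 to 11.89 with PBS (median 11.77). Again no leptin array fell within the PBS range, and the leptin arrays were the more spread of the 2 groups, with an SD of 0.58 against 0.23. C8b had a log2 difference of 1.14 ± 0.23 (limma adjusted p = 0.00576), a fold of 2.21. C8g, the gamma chain, which belongs to the lipocalin family, ran from 12.70 to 13.79 with leptin (median 13.61) and from 12.86 to 13.76 with PBS (median 13.43). The C8g ranges lay almost on top of each other, with a log2 difference of 0.00 ± 0.20 (limma adjusted p = 0.998).

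The chains were then set against each other directly, within arrays, by an exact permutation test over the 924 regroupings of 12 arrays (two-sided, smallest possible p 0.00216). It was run on 19 pairs of genes or probes that share a complex, a step or a place, and p-values were adjusted over the 19. All 19 pairs were chosen with results of these data known, so their p-values, here and below, are not independent support. The difference of C8a exceeded that of C8g by 1.53 ± 0.32 on the log2 scale (exact p = 0.00216, adjusted p = 0.00685). That of C8b exceeded C8g by 1.14 ± 0.20 (exact p = 0.00433, adjusted p = 0.0118). The difference of C8a minus that of C8b was 0.38 ± 0.26 and did not pass (exact p = 0.169, adjusted p = 0.189).

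C8a and C8b are next to each other on chromosome 4 in the order of protein-coding genes of the RefSeq table, whereas C8g lies on chromosome 2. Their promoters are shown because these neighbours were both higher with leptin. The sequences are RefSeq's on build GRCm38.p6, 300 bases across the gene start, 5′ to 3′ on the gene's strand. C8a lies on the minus strand at chr4:104876349-104876648 and C8b on the plus strand at chr4:104766067-104766366. Capitals mark matches, on either strand, to 5 motifs of factors known in liver or clock control: CAAAGTCCA of HNF4, TTGCNNAA of C/EBP, TTCNNNGAA of STAT, the D-box TTANGTAA and the E-box CACGTG.
C8a: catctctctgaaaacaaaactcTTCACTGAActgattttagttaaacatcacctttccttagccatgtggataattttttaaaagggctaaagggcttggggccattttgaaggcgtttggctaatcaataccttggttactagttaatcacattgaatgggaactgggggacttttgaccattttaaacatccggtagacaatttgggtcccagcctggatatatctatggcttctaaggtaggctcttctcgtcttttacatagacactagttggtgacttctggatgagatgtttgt
C8b: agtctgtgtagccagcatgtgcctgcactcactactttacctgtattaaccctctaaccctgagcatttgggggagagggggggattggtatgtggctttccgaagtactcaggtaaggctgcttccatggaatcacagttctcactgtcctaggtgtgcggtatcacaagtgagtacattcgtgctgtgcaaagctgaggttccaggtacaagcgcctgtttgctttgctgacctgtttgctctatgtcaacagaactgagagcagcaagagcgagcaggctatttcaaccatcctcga
In C8a the capitals are a STAT match starting 228 bases before the gene start. C8b held 0 matches in this window. Promoters were in the table for 25 of the 34 tested members. The C/EBP letters were in 6 of these 25 and in 10.8% of all 32851 promoters of the same length. They were in 1 of the 6 called members with a promoter and in 5 of the 19 not called. The STAT letters were in 6 of 25 and 8.30%, and the D-box was in 1 of 25 and 2.32%. The HNF4 letters and the E-box were in 0 of 25, against 0.475% and 7.15% of all promoters. A match here describes letters only.

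C6 and C9 complete the tested terminal genes. C6, which joins the complex before C8, ran from 9.16 to 11.48 with leptin (median 10.26) and from 7.93 to 10.17 with PBS (median 9.21). The groups overlapped widely, with 3 leptin arrays above the highest PBS array. The within-group SD of C6 was 0.869, against a median of 0.271 over the members, and its log2 difference of 1.17 ± 0.43 did not pass (limma adjusted p = 0.0800). It passed without PBS 2 (1.37, adjusted p = 0.0435) or without leptin 1 (1.40, adjusted p = 0.0449). PBS 2 was its highest PBS array and leptin 1 its lowest leptin array, so these passes are not independent support.

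C9, which polymerizes to form the pore wall, was 13.41 ± 0.33 (SD) with leptin and 12.84 ± 0.49 with PBS, a log2 difference of 0.57 ± 0.22 (SE, limma adjusted p = 0.0888). Its 3 kept probes disagreed in call. A second C9 probe separated the groups, 10.27 to 11.06 with leptin and 9.20 to 10.25 with PBS, with a log2 difference of 0.83 ± 0.18 (limma adjusted p over probes = 0.00713). The third C9 probe was close to background, was detected on 10 arrays, and had a difference of -0.11 ± 0.16. The brightest C9 probe passed without PBS 2 (0.68, adjusted p = 0.0465), its highest PBS array, so this pass is not independent support. The difference of C6 minus that of C9 was 0.60 ± 0.35 (exact p = 0.139, adjusted p = 0.165).

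**Figure D2:**
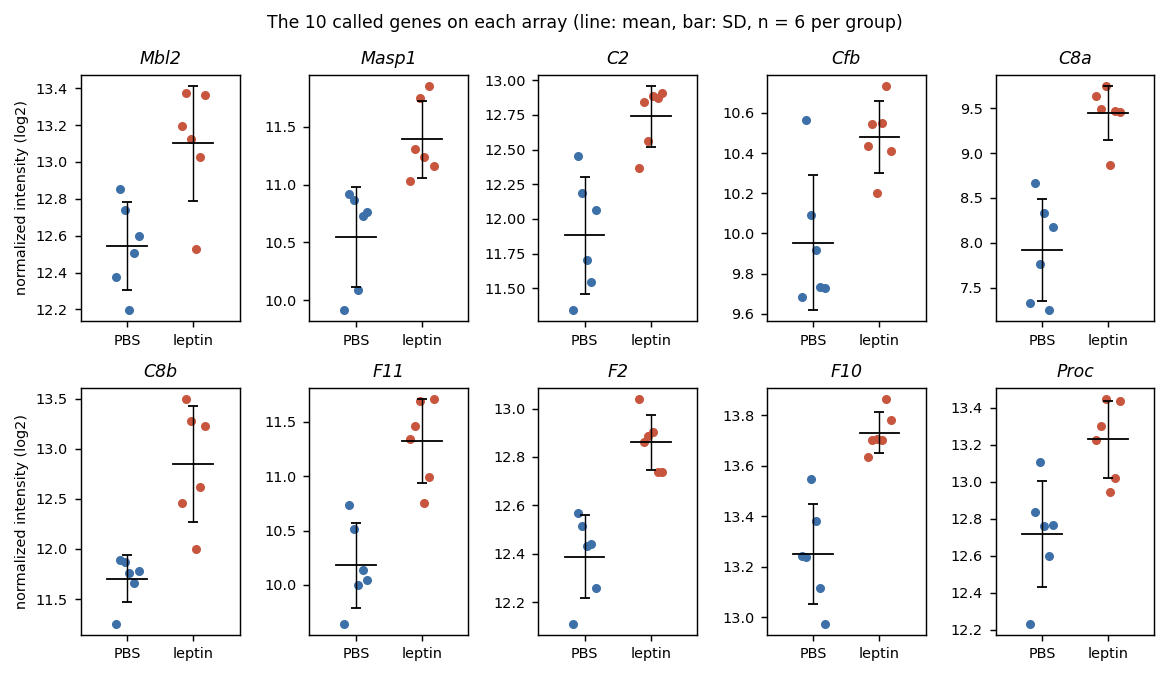
Normalized log2 intensity on each array for the 10 called genes, PBS in blue and leptin in red, with the mean as a line and the SD as a bar (n = 6 per group); each panel has its own scale, which does not start at 0. In C8a, C8b, F11, Masp1, F10 and F2 the lowest leptin array lies above the highest PBS array.

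The lectin and classical pathways recognize surfaces and build the C3 convertase. All 6 of their genes were tested, 3 were higher, and the median log2 difference was 0.58. C2, the protease of the convertase, ran from 12.37 to 12.90 with leptin (median 12.86) and from 11.34 to 12.45 with PBS (median 11.89). On the C2 probe 5 leptin arrays lay above the highest PBS array. C2 had a log2 difference of 0.85 ± 0.18 (limma adjusted p = 0.0082), a fold of 1.81.

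C4b encodes complement component C4, the partner of C2, and closely resembles C4a, so its probe may read both. It was 12.97 ± 0.18 (SD) with leptin and 12.38 ± 0.67 with PBS, where single arrays ran from 11.49 to 13.20. The PBS range enclosed the leptin range, and the log2 difference of C4b was 0.60 ± 0.25 (SE, limma adjusted p = 0.123). It was 0.76 and passed without PBS 3 (adjusted p = 0.0399), its highest PBS array, so this pass is not independent support. The other kept C4b probes, detected on 12 arrays, had differences of 0.21 and 0.22 (limma adjusted p over probes = 0.659 and 0.637). The differences of C2 and C4b differed by 0.26 ± 0.18 (exact p = 0.229, adjusted p = 0.242). Cfb, factor B, is the alternative-pathway counterpart of C2 and its neighbour on chromosome 17. It ran from 10.20 to 10.74 with leptin (median 10.49) and from 9.68 to 10.56 with PBS (median 9.83).

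For Cfb, 5 PBS arrays lay below the lowest leptin array, and PBS 2 was the exception. Its log2 difference of 0.53 ± 0.15 (limma adjusted p = 0.0327), a fold of 1.44, was smaller than that of C2 by 0.33 ± 0.13 (exact p = 0.0325, adjusted p = 0.047). The Cfb call was lost on leaving out PBS 1, 4, 5 or 6 or leptin 1, 2, 4 or 5, with adjusted p from 0.0511 to 0.0715.

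Mbl2 and Mbl1 encode the mannose-binding lectins C and A of the mouse. Mbl2 ran from 12.53 to 13.37 with leptin (median 13.16) and from 12.20 to 12.85 with PBS (median 12.55). One leptin array, leptin 4, fell among the PBS arrays. Mbl2 had a log2 difference of 0.56 ± 0.16 (limma adjusted p = 0.0292), a fold of 1.47, and the call was lost without PBS 1, 4 or 5 or leptin 1, 2, 3 or 6 (adjusted p from 0.0537 to 0.0643). Mbl1 was 11.21 ± 0.32 (SD) with leptin and 11.20 ± 0.25 with PBS, with a log2 difference of 0.01 ± 0.16 (SE, limma adjusted p = 0.974). The difference of Mbl2 exceeded that of Mbl1 by 0.55 ± 0.22 (exact p = 0.0303, adjusted p = 0.047).

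Masp1 and Masp2 encode the proteases that travel with these lectins. Masp1 ran from 11.03 to 11.85 with leptin (median 11.27) and from 9.91 to 10.92 with PBS (median 10.74). The groups did not overlap, and PBS 1 and PBS 4 lay well below the other PBS arrays. The log2 difference of Masp1 was 0.85 ± 0.20 (limma adjusted p = 0.0144), a fold of 1.80. Masp2 was 12.20 ± 0.07 (SD) with leptin and 12.02 ± 0.08 with PBS, a log2 difference of 0.18 ± 0.09 (SE, limma adjusted p = 0.187). The difference of Masp1 exceeded that of Masp2 by 0.67 ± 0.21 (exact p = 0.00649, adjusted p = 0.0154).

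The Masp1 gene yields several proteins by alternative splicing, and its probes were designed to different transcript records. A second Masp1 probe, also detected on 12 arrays, ran from 9.88 to 10.84 with leptin and from 9.58 to 10.85 with PBS. These ranges coincided, and the log2 difference was 0.19 ± 0.22 (limma adjusted p over probes = 0.594). The differences of the 2 Masp1 probes were apart by 0.66 ± 0.26 (exact p = 0.0325, adjusted p = 0.047). The dimmest Masp1 probe was detected on 3 leptin arrays and 0 PBS arrays, too dim for a fold. As a mean over its 3 kept probes the log2 difference of Masp1 was 0.48 (limma adjusted p = 0.0275). Which Masp1 transcripts each probe reads was not resolved here.

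None of the 4 complement regulators passed the limma test, and their log2 differences ran from 0.27 to 0.43. At an unadjusted p under 0.05, 3 were higher, where 32.2 percent of all genes passed in either direction. C4bp, which speeds the decay of the C3 convertase, was 12.23 ± 0.18 (SD) with leptin and 11.79 ± 0.31 with PBS, a log2 difference of 0.43 ± 0.15 (SE, limma adjusted p = 0.0586). Vtn, vitronectin, which keeps the terminal complex out of membranes, was 14.85 ± 0.17 with leptin and 14.49 ± 0.32 with PBS, a difference of 0.36 ± 0.15 (limma adjusted p = 0.111). Cfi, the protease that inactivates C3b and C4b, had a difference of 0.31 (adjusted p = 0.0934) and passed without PBS 3 (0.37, adjusted p = 0.0461). PBS 3 was the highest PBS array of Cfi, so this pass is not independent support. Serping1, the C1 inhibitor, which also restrains the contact proteases, had 0.27 (adjusted p = 0.283). C4bp passed without PBS 2 (0.52, adjusted p = 0.0259) and without PBS 4 (0.50, adjusted p = 0.0480). PBS 2 and PBS 4 were its highest PBS arrays, so these passes are not independent support. C4bp also passed with array weights (0.0467), without background correction (0.0478) and under 1 other background correction (0.0489). A second kept C4bp probe, detected on 12 arrays, had a difference of 0.15 ± 0.25 (limma adjusted p over probes = 0.727).

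The contact system starts clotting on surfaces and releases bradykinin. Of its 4 genes 1 was higher. F11, factor XI, ran from 10.75 to 11.71 with leptin (median 11.40) and from 9.65 to 10.74 with PBS (median 10.09). The lowest leptin array, leptin 4, lay just above the highest PBS array, PBS 2. The log2 difference of F11 was 1.14 ± 0.21 (limma adjusted p = 0.00315), a fold of 2.21. A second F11 probe gave 1.05 (limma adjusted p over probes = 0.00271), and the dimmest, close to background, gave 0.56 (0.0695).

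Klkb1, plasma prekallikrein, is a close relative of F11 and its neighbour on chromosome 8. It ran from 9.77 to 11.60 with leptin (median 11.12) and from 9.45 to 11.08 with PBS (median 9.66). The overlap came from PBS 3 at 11.08 and leptin 4 at 9.77. Over all 12 arrays the log2 difference of Klkb1 was 0.97 ± 0.32 (limma adjusted p = 0.0543). Without both arrays it was 1.42 (adjusted p = 0.00103), and it also passed without PBS 3 alone (adjusted p = 0.0157) or leptin 4 alone (0.0115). PBS 3 was its highest PBS array and leptin 4 its lowest leptin array. Leaving them out therefore widens the difference and is not independent support.

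The difference of F11 minus that of Klkb1 was 0.18 ± 0.28 (exact p = 0.541, adjusted p = 0.541). F12, factor XII, the protease that activates both, was 12.83 ± 0.12 (SD) with leptin and 12.72 ± 0.32 with PBS, a log2 difference of 0.11 ± 0.14 (SE, limma adjusted p = 0.650). The difference of F11 exceeded that of F12 by 1.04 ± 0.19 (exact p = 0.00216, adjusted p = 0.00685). That of Klkb1 exceeded F12 by 0.86 ± 0.33 (exact p = 0.0303, adjusted p = 0.047). F12 lies on chromosome 13. The promoters of the neighbours F11 and Klkb1 are shown for comparison, both on the minus strand, F11 at chr8:45261982-45262281 and Klkb1 at chr8:45294786-45295085, with the same window, build and motifs as above.
F11: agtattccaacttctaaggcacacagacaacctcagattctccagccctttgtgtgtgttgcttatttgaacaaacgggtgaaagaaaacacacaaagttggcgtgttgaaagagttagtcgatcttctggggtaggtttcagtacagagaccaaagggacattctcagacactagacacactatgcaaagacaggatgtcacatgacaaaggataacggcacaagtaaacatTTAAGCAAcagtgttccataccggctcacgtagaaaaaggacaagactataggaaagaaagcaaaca
Klkb1: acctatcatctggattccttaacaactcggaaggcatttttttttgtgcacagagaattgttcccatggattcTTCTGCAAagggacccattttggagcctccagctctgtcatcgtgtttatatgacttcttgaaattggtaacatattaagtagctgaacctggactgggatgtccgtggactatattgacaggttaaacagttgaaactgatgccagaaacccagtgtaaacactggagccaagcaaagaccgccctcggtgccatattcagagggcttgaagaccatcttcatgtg
Each has 1 match, in capitals, to the C/EBP letters, starting 17 bases before the gene start in F11 and 177 before it in Klkb1.

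Kng1 encodes the kininogens, the source of bradykinin. Its brightest probe was 15.46 ± 0.04 (SD) with leptin and 15.44 ± 0.06 with PBS, a log2 difference of 0.03 (limma adjusted p = 0.853). Its mean deposited signal of 44857 lay near 51374, the highest signal on the arrays, where a difference may be compressed. A second Kng1 probe had a log2 difference of 0.34 ± 0.11 (limma adjusted p over probes = 0.0390), and the dimmest, detected on all 12 arrays, had -0.95 ± 0.20 (0.0066). The differences of these last 2 Kng1 probes were apart by 1.30 ± 0.19 (exact p = 0.00216, adjusted p = 0.00685). That pair leaves out the brightest probe and was chosen with results of these data known, so its p-value is not independent support. Kng1 closely resembles Kng2, so the probes may not be specific to either gene. Kng2 itself had a log2 difference of -0.15 (limma adjusted p = 0.431), or 0.12 as a mean over its kept probes.

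The coagulation proteases and their cofactor had a median log2 difference of 0.37 over 5 genes, with 2 higher. F10, factor X, which cleaves prothrombin, ran from 13.64 to 13.86 with leptin (median 13.70) and from 12.98 to 13.55 with PBS (median 13.24). F2, prothrombin itself, ran from 12.74 to 13.04 with leptin (median 12.87) and from 12.11 to 12.57 with PBS (median 12.44). Neither gene's groups overlapped, and both varied less among leptin than among PBS arrays. The log2 difference of F10 was 0.48 ± 0.11 (limma adjusted p = 0.0105), a fold of 1.40. That of F2 was 0.47 ± 0.11 (limma adjusted p = 0.0105), a fold of 1.39.

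F7, factor VII, which starts the extrinsic route and is the neighbour of F10 on chromosome 8, was 10.86 ± 0.14 (SD) with leptin and 10.66 ± 0.19 with PBS, a log2 difference of 0.20 ± 0.12 (SE, limma adjusted p = 0.263). The difference of F10 exceeded that of F7 by 0.29 ± 0.11 (exact p = 0.0346, adjusted p = 0.047). F9, factor IX, on chromosome X, had the lowest difference of all members, -0.19 ± 0.12 (limma adjusted p = 0.295). F9 read 12.98 ± 0.10 (SD) with leptin and 13.17 ± 0.23 with PBS. The differences of F10 and F2 exceeded that of F9 by 0.67 ± 0.11 and 0.66 ± 0.10, each with an exact p of 0.00216 and an adjusted p of 0.00685. Both pairs were chosen with results of these data known, and F9 is the lowest member, so these p-values are not independent support. F5, the cofactor of factor X, was 11.17 ± 0.31 with leptin and 10.81 ± 0.48 with PBS, a difference of 0.37 ± 0.21 (limma adjusted p = 0.262).

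Proc, protein C, inactivates the clotting cofactors and was the 1 anticoagulant of 4 that was higher. It ran from 12.94 to 13.45 with leptin (median 13.26) and from 12.23 to 13.10 with PBS (median 12.76). For Proc 4 leptin arrays lay above the highest PBS array. The log2 difference of Proc was 0.51 ± 0.15 (limma adjusted p = 0.0306), a fold of 1.43, and the call was lost without PBS 1, 4, 5 or 6 or leptin 1, 2, 3 or 6 (adjusted p from 0.0501 to 0.0665). A second Proc probe had a difference of 0.19 ± 0.15 (limma adjusted p over probes = 0.417), lower than the other by 0.32 ± 0.07 (exact p = 0.00216, adjusted p = 0.00685).

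Pros1, protein S, the cofactor of protein C, had a log2 difference of 0.16 ± 0.16 (limma adjusted p = 0.522), with 10.88 ± 0.20 (SD) for leptin and 10.73 ± 0.33 for PBS. The difference of Proc minus that of Pros1 was 0.36 ± 0.18 (exact p = 0.0758, adjusted p = 0.096). Serpinc1, antithrombin, had 0.13 ± 0.12 (limma adjusted p = 0.4996), and -0.07 as a mean over its kept probes. Serpind1, heparin cofactor II, had -0.06 (adjusted p = 0.808). Over the 6 vitamin K-dependent members, F2, F7, F9, F10, Proc and Pros1, the median log2 difference was 0.33 and 3 were higher.

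Fibrinogen is a hexamer of alpha, beta and gamma chains, whose genes Fga, Fgb and Fgg form a cluster on chromosome 3. No gene of the fibrinogen and crosslinking arm passed the limma test among 3 tested. At an unadjusted p under 0.05, 1 was higher, where 32.2 percent of all genes passed in either direction. Fgg was 13.48 ± 0.21 (SD) with leptin and 13.02 ± 0.35 with PBS, a log2 difference of 0.46 ± 0.16 (SE, limma adjusted p = 0.0646). Fgg passed without PBS 2 (0.57, adjusted p = 0.0182), its highest PBS array, so this pass is not independent support. Fga was 15.17 ± 0.11 with leptin and 15.04 ± 0.28 with PBS, a difference of 0.13 ± 0.13 (limma adjusted p = 0.515). The difference of Fgg exceeded that of Fga by 0.33 ± 0.11 (exact p = 0.00866, adjusted p = 0.0183). The mean deposited signal of this Fga probe was 35670, where the highest on the arrays was 51374, so its difference may be compressed. F13b, the carrier subunit of the fibrin-crosslinking factor XIII, had -0.09 (limma adjusted p = 0.609).

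Neither of the 2 tested fibrinolysis genes passed the limma test. The count at an unadjusted p under 0.05 was 0, where 32.2 percent of all genes passed in either direction. Serpinf2, alpha 2-antiplasmin, had a log2 difference of 0.21 ± 0.13 (limma adjusted p = 0.294) on its brightest probe, while the third of its probes separated the groups with 0.54 ± 0.12 (limma adjusted p over probes = 0.00896). Plg, plasminogen, was 14.05 ± 0.21 (SD) with leptin and 13.74 ± 0.40 with PBS, a difference of 0.31 ± 0.18 (SE, limma adjusted p = 0.240). A dim Plg probe went the other way: it was detected on 6 PBS arrays and 0 leptin arrays, and was at least 1.73-fold higher with PBS, taking the lowest detected signal of each leptin array as the bound (limma adjusted p over probes = 3.59e-05). This dim probe passed the detection filter through PBS arrays only, so its call is not independent of that filter. As a mean over its kept probes, the log2 difference of Plg was -0.18.

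Across probes, 63 of 65 for the members were kept, and 53 of these had a difference above 0. By limma over all 15062 kept probes, 15 member probes were higher and 2 lower, where 8.31 percent of all kept probes were higher and 9.76 percent lower. The 2 lower ones were the dimmest probes of Kng1 and Plg. That Plg probe passed the detection filter through PBS arrays only. Among the 15 higher, the dimmest Masp1 probe passed it through leptin arrays only. The calls of these Plg and Masp1 probes are therefore not independent of the filter. More than 1 probe was kept for 18 members, of which 13 had all probes in the same direction and 5 did not. Among the called genes, Masp1, F11 and Proc had more than 1 kept probe, and for 0 of these 3 were all probes called.

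**Figure D3:**
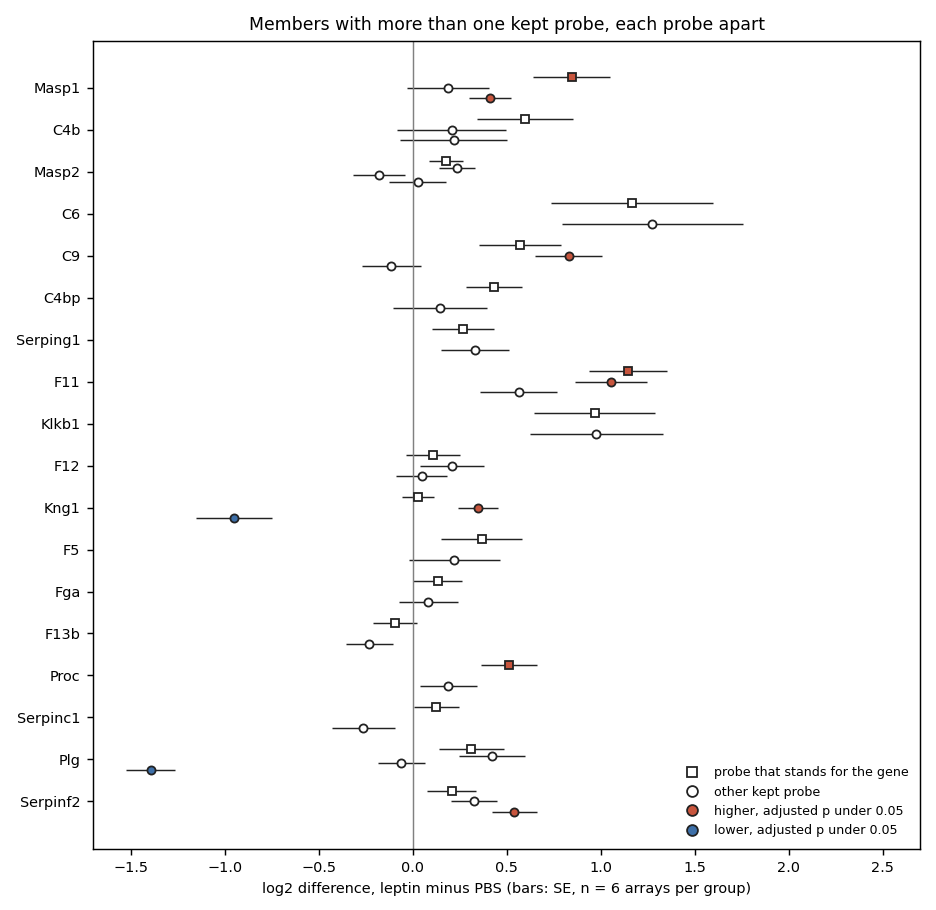
Log2 difference between leptin and PBS with its SE (n = 6 arrays per group) for each kept probe of the 18 members with more than 1, squares for the probe that stands for the gene and circles for the others. Red marks probes called higher and blue the 2 called lower, in Kng1 and Plg.

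By array, the median deviation of the members from their own means over 12 arrays ran from 0.05 to 0.25 in the leptin group and from -0.52 to 0.07 in the PBS group (log2). PBS 1 was lowest, with 4 of 34 members above their mean, and leptin 6 was highest, with 31. PBS 2 and PBS 3, at 0.01 and 0.07, lay near or within the leptin range, and the median deviation of all genes stayed between -0.05 and 0.03 on every array. Without PBS 1 the median log2 difference of the members was 0.29 and 7 were higher, with Mbl2, Cfb and Proc lost. The same 7 were higher without PBS 5 or without leptin 2. Without PBS 2 there were 14, with C6, C9, C4bp and Fgg gained. PBS 2 was the highest PBS array of each of these gained genes, so leaving it out widens their differences.

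**Figure D4:**
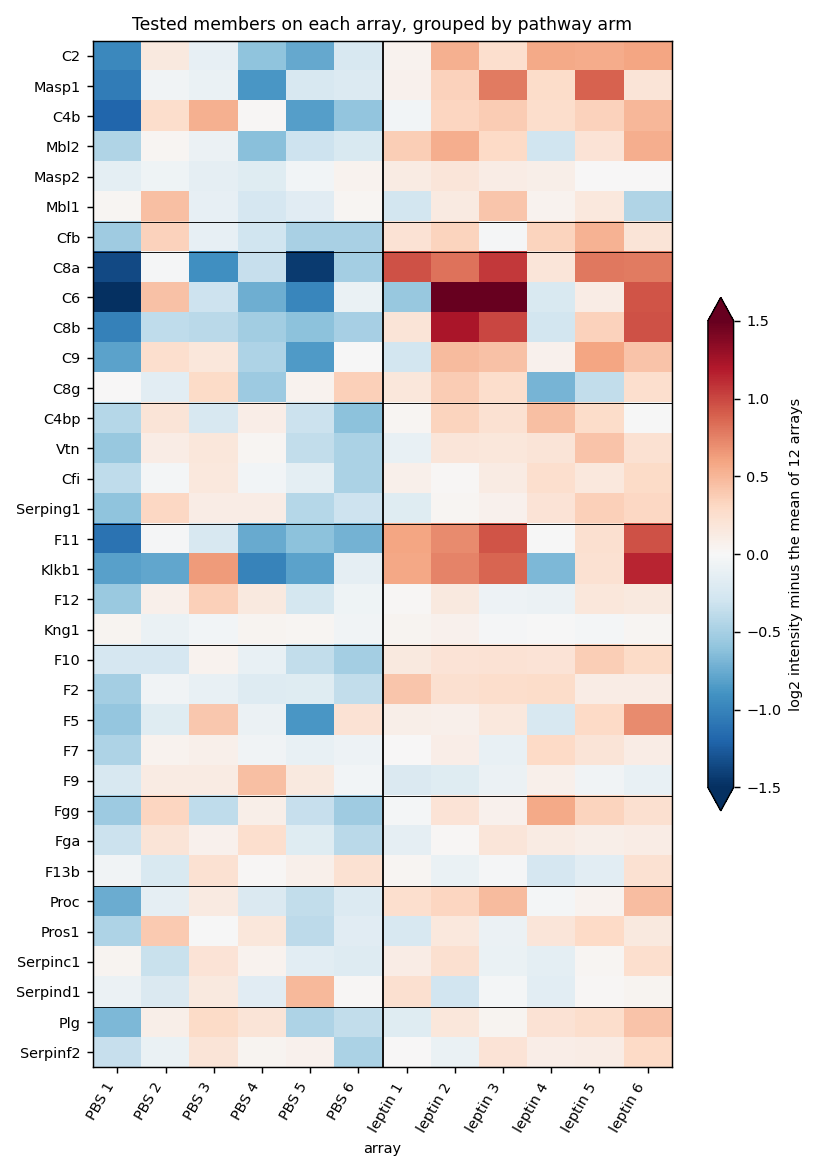
Deviation of each tested member (rows, ordered by arm) from its mean over the 12 arrays (columns), in log2 units with red above and blue below; values past 1.5 share the end colours. PBS 1 is below the mean for 30 of the 34 members, and Klkb1 is high on PBS 3 and low on leptin 4.

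On the probes that stood for the genes, the authors' deposited table marks 4 of the members as raised. These are C8a, with a log2 difference of 1.21 (unadjusted p = 2.66e-06), C8b (1.12, p = 5.24e-05), F11 (1.08, p = 4.31e-05) and C2 (0.84, p = 0.000203), all values of the authors' deposited table, which has no background subtracted. On those probes no other tested member is marked there in either direction. The members' other probes are not covered by this comparison.

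Other genes of the same systems were read from whole pathway lists. Of 11 other complement components tested, 5 were higher and 0 lower, with a median log2 difference of 0.66. Hc, the mouse gene of complement C5, which starts the terminal pathway, ran from 11.64 to 11.93 with leptin (median 11.77) and from 9.99 to 11.55 with PBS (median 10.89). The groups did not overlap, and the difference of Hc was 0.86 ± 0.22 (limma adjusted p = 0.0206). C1qa and C1qc, chains of C1q, which macrophages make, had 1.003 ± 0.25 (limma adjusted p = 0.0153) and 0.88 ± 0.27 (0.0370). Fcna, ficolin A, had 0.66 ± 0.19 (limma adjusted p = 0.0286). C1s1, a protease of the C1 complex and the fifth of these genes, had 0.49 ± 0.15 (limma adjusted p = 0.0334) and is named here after its value was seen. Among these calls C1qc was lost in 13 of 26 alternatives, among them 9 single arrays left out (PBS 1, 3, 4, 5 or 6, leptin 1, 3, 4 or 5, adjusted p from 0.0519 to 0.0766). Fcna was lost in 9, among them PBS 3 or 4 and leptin 1, 3 or 5 left out (0.0501 to 0.0629). C1s1 was lost in 11, among them PBS 1, 4 or 5 and leptin 1, 4 or 5 left out (0.0557 to 0.0729). Of 9 other complement regulators and receptors, with a median of -0.04, 0 were called by limma in either direction. Of these 9, 1 was higher at an unadjusted p under 0.05, where 32.2 percent of all genes passed in either direction.

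Of 10 other coagulation genes, 1 was higher and 1 lower. Proz, protein Z, the next gene after F10, had 0.43 ± 0.13 (limma adjusted p = 0.0361), and Hrg, histidine-rich glycoprotein, had -0.65 ± 0.18 (0.0249). The Proz call was lost in 13 of 26 alternatives, among them the mean over kept probes (0.27, adjusted p = 0.180) and every single array left out but PBS 2, PBS 3 and leptin 4 (0.0508 to 0.0762). The Hrg call was lost in 5, among them PBS 4 or leptin 1, 2 or 3 left out (0.0511 to 0.0546). Among 5 other fibrinolysis genes, 2 were higher and 1 lower. Hgfac, a protease that resembles factor XII and activates hepatocyte growth factor, was 13.02 ± 0.26 (SD) with leptin and 11.61 ± 0.44 with PBS, without overlap (log2 difference 1.42 ± 0.20 SE, limma adjusted p = 0.000726). Anxa2 and S100a10, which form a cell surface receptor for plasminogen, had 0.95 ± 0.28 (limma adjusted p = 0.0329) and -0.85 ± 0.26 (0.0388). The Anxa2 call was lost in 11 of 26 alternatives, among them PBS 1, 3, 4 or 6 and leptin 1, 3 or 5 left out (0.0506 to 0.0724). The S100a10 call was lost in 10, among them PBS 1, 4, 5 or 6 and leptin 2, 5 or 6 left out (0.0516 to 0.0787).

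The 9 genes of gamma-carboxylation and factor secretion included 0 higher and 1 lower. Ggcx, the carboxylase, had a log2 difference of 0.34 (limma adjusted p = 0.256), and Vkorc1, which recycles vitamin K, had -0.05 (0.754). Nqo1, a quinone reductase under Nrf2 control, ran from 5.40 to 6.37 with leptin (median 6.01) and from 7.04 to 8.14 with PBS (median 7.55). The groups did not overlap, and Nqo1 fell by 1.602 ± 0.22 on the log2 scale (limma adjusted p = 0.000726), and by 0.84 without background correction (0.00163).

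Of 11 liver transcription factors tested, 1 was higher and 1 lower. Foxa3 had 0.61 ± 0.16 (limma adjusted p = 0.0185) and Foxa2 -0.76 ± 0.23 (0.0366), the latter detected on 5 leptin arrays. The Foxa2 call was lost in 13 of 26 alternatives, among them every single array left out but PBS 5, leptin 2 and leptin 3 (adjusted p from 0.0503 to 0.0792), and its difference was -0.33 without background correction. Hnf4a, which drives many clotting genes in hepatocytes, had 0.07 (limma adjusted p = 0.841). Cebpa had 0.16 (0.677), Cebpb 0.34 (0.426) and Stat3 -0.10 (0.778). None of 17 acute phase genes was called by limma, and their median was 0.12. Of the 17, 1 was higher at an unadjusted p under 0.05, where 32.2 percent of all genes passed in either direction. Saa1 had 0.82 ± 0.61 (limma adjusted p = 0.373), with PBS arrays from 12.02 to 15.43, and Hp, haptoglobin, had -0.07 (0.704).

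Among 11 clock genes tested, 4 were higher and 2 lower. Dbp had a log2 difference of 2.65 ± 0.53 (limma adjusted p = 0.00566). Bhlhe40, a repressor of the clock, had 1.19 ± 0.31 (limma adjusted p = 0.0191). Clock had -1.03 ± 0.14 (limma adjusted p = 0.000726). Arntl was at least 1.95-fold higher with PBS, by the same bound as for Plg (limma adjusted p = 0.00159). It was detected on 0 leptin arrays and passed the detection filter through PBS arrays only. The part of clock phase in the members' differences was not tested. Leaving out PBS 3 and leptin 4 cannot test it, since it removes the PBS array of highest Dbp and the leptin array of lowest Dbp.

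Some cell type markers differed between the groups. All 8 hepatocyte markers on the array were tested, and their summed normalized intensity ran from 127594 to 154380 with leptin and from 130030 to 159673 with PBS. That sum is weighted to bright probes such as Ahsg and Apoa1, with means of 15.40 and 15.27 with PBS, where a difference may be compressed. Of the 8 markers, Serpina1a was higher (0.46) and Alb, on a dim probe, was lower (-0.83, limma adjusted p = 0.0374). The Alb call was lost in 13 of 26 alternatives, among them every single array left out but PBS 2 and leptin 1 (adjusted p from 0.0554 to 0.0803), and its difference was -0.45 without background correction. Of 6 tested macrophage markers 2 were higher, Clec4f (0.97 ± 0.18, limma adjusted p = 0.00331) and Timd4 (1.06 ± 0.32, 0.0362), and their summed intensity ran from 4527 to 11040 with leptin and from 2992 to 6120 with PBS. Cd5l of that list did not pass the detection filter. The Timd4 call was lost in 16 of 26 alternatives, among them every single array left out but PBS 2 and leptin 2, 4 and 6 (adjusted p from 0.0514 to 0.0754), and no background correction (0.49, 0.0806).

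Of 6 tested sinusoidal endothelial markers 2 were higher, Cdh5 (1.03) and Stab2 (0.58), with sums from 5906 to 8898 against 4066 to 8896, and Kdr was not detected on enough arrays. All 3 tested lymphocyte markers, Cd3e, Cd3g and Cd79b, were higher, with sums from 119 to 236 against 68.7 to 97.0. Ms4a1 and Nkg7 of that list did not pass the detection filter. Cd3e and Cd3g were detected on 0 PBS arrays, so they passed the detection filter through leptin arrays only. Cd79b was detected on 6 leptin arrays and 1 PBS array, so it too needed leptin arrays to pass the filter. The PBS sums therefore lie near background. Taking the lowest detected signal of each PBS array as the bound, Cd3e and Cd3g were at least 1.04-fold and 1.12-fold higher with leptin. Without background correction the difference of Cdh5 was 0.65, and that of Cd79b fell from 0.93 to 0.30. Of 2 acinar markers Amy2a5 was lower (-0.48). No tested marker of stellate cells (5), neutrophils (5), platelets (4), erythroid cells (2) or cholangiocytes (2) was called by limma. At an unadjusted p under 0.05, only 1 stellate and 1 platelet marker were higher, where 32.2 percent of all genes passed in either direction. None of the 6 adipocyte markers passed the detection filter. The part of these shifts in the members' differences was not tested.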

How the data were processed

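Per the labels' protocols, liver RNA was isolated with Trizol and RNeasy columns and measured as biotinylated cRNA on Illumina Mouse-6 V2 BeadChips. The deposited values are an intensity (AVG_Signal) and a detection p-value per probe and array, per the file headers. Once sorted, the 12 arrays' signals had a median spread of 0 percent, so they had been made equal in distribution before deposit, and no background was subtracted (lowest 95.9, median 118.9). What software did this is not given. The series matrix holds the authors' log2 values, equal to log2 of these signals. The authors' deposited table of differences gives an unadjusted p-value and a log2 difference per probe.

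Signals were processed with limma's neqc (background from detection p-values, offset 16, quantile normalization, log2), so folds of dim genes are understated. Probes with a detection p under 0.01 on at least 3 of 12 arrays were kept (15062, of which 13068 had 1 gene symbol). The kept probe of highest mean stood for each gene, which gave 8819 genes. Of the 45281 probes, 34885 had 1 symbol in the GEO platform annotation, 18 several and 10378 none. All 38 members matched a RefSeq table of GRCm38.p6 by gene symbol. The leptin and PBS groups were tested in limma (two-sided, lmFit then eBayes), with p adjusted over all genes by Benjamini-Hochberg and a threshold of 0.05, and the fit was tested on simulated data.

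Named genes were the called members, up to 2 uncalled members of greatest difference per arm, up to 4 called genes per other list, some genes fixed by name and genes with an array standing apart. Members, lists, pairs and rules were chosen with earlier results of these data known. No slide or batch is named, so none was tested. Alternatives were other background, normalization, filter, probe and variance choices, a replicate block, array weights, a minimum fold of 1.2, the authors' p-values, leaving out each array, and leaving out PBS 3 and leptin 4 together. Of these alternatives, the authors' deposited log2 values and no background correction use equal values, so the same fit counts under both names. R 4.3.3, limma 3.58.1 and Python 3.11.15 were used. Some items are not reported here.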

Additional observations from a re-analysis of the deposited data

Results flagged for a closer look

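On the 34 tested members and 35 other named genes, the highest or lowest array of each group of 6 was set against the rest by Dixon's ratio (gap over range). In 138 groups, 11 arrays stood apart, of which 3 lay among the 68 groups of the members, and chance alone gives about 1 in 20.

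Among the members, C8a on leptin 4 read 8.87 (others 9.46 to 9.74, log2), C8b on PBS 1 read 11.26 (others 11.66 to 11.89) and F7 on PBS 1 read 10.30 (others 10.65 to 10.84). C1qa on PBS 2 read 9.61 (others 8.604 to 8.84), Alb on PBS 2 read 5.77 (others 7.15 to 7.47) and Timd4 on PBS 2 read 7.12 (others 5.47 to 5.97). On leptin 4, Timd4 read 8.15 (others 6.44 to 6.97), Cd79b 6.52 (others 5.68 to 5.86) and Arntl 5.11 (others 4.36 to 4.54). Arntl was detected on 0 leptin arrays, so its leptin values lie near background. On PBS 3, Arntl read 4.84 (others 6.33 to 6.69) and Dbp 12.27 (others 8.72 to 10.05).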

How the results depend on the processing

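Over 26 alternatives, C8a, C8b and F11 were called higher in all, and C2, Masp1, F2 and F10 in 25, failing only against a minimum fold of 1.2. With that minimum, 142 genes were higher and 143 lower in all, and 3 members were higher. With the authors' deposited p-values, 465 genes were lower. Leaving out each array in turn gave 505 to 808 genes higher and 548 to 778 lower, 7 to 14 members higher, 0 to 0 lower, and a median member difference of 0.29 to 0.43. No member was called lower in any of the 26. As a mean over kept probes, Plg (-0.18), Serpinc1 (-0.069), Hp (0.17) and Kng2 (0.12) changed sign, Masp1 had 0.48 in place of 0.85, and Proc (0.35, adjusted p = 0.114) was not called. Hnf4a was -0.017 without PBS 1 and -0.050 without PBS 5, within a range of -0.050 to 0.17 over single arrays left out, and Stat3 was 0.028 without PBS 3 and leptin 4. The cause of these changes was not tested. With the replicate number as a block, 15 members were higher, adding C6 (adjusted p = 0.00383), C9, C4bp, Klkb1 (0.0155) and Fgg, and 695 genes were higher and 689 lower. The block ended the calls of Anxa2 (0.0701), C1qc (0.0696), C1s1 (0.0742), Fcna (0.0564), Proz (0.0629) and Timd4 (0.0633). Same-numbered arrays correlated between -0.32 and 0.46 in their deviations and 2 of 6 pairs were best partners, so the numbers were not taken as a pairing. Precision is limited by 6 arrays per group, by signals near background for the dimmest probes of Plg and Masp1, and by the brightest Kng1 probe near the top of the range.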
